A study of Mus musculus with 34 samples.

Results

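Sites bound by both SIN3A and PDX1 in the mouse β-cell line Beta-TC6, which makes insulin, were found by overlapping the peak list of SIN3A in cells given a control siRNA with the peak list of PDX1 in wild-type control cells. A shared site is a SIN3A peak that overlaps a PDX1 peak by at least 1 bp. There were 896 such sites among 13109 SIN3A peaks and 40028 PDX1 peaks, each SIN3A peak pairing with 1 PDX1 peak. They leave 12213 SIN3A peaks without PDX1 and 39132 PDX1 peaks without SIN3A. SIN3A peaks were further divided by the distance from their centre to the nearest boundary of a protein-coding gene, its first or its last annotated base, called a gene end here. The 10 lists of the whole series hold 174035 peaks.

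Chromatin immunoprecipitation with sequencing recovers and counts the DNA fragments bound by a chosen protein, and a peak is a place where those fragments pile up. The SIN3A control list comes from 2 immunoprecipitated samples of wild-type cells with control siRNA, and the PDX1 list from 3 samples of wild-type control cells for which no siRNA is labelled. The cells of every group had first been synchronised by a forskolin pulse of 1 h at 10 µM. Also used were SIN3A after Pdx1 siRNA (2 samples), PDX1 in Bmal1 knockout cells without cytokine, PDX1 and p65 in wild-type cells with IL-1β, and p65 in wild-type control cells (3 samples each). The antibody label of the IL-1β samples titled PDX1 names p65, and the titles were followed. All are 1 cell line, and the labels leave unsaid whether the samples of a group were separate cultures. The files hold 1 list per group and no value per sample, so nothing could be tested between conditions, and every interval is a 95% Wilson interval that covers counting error only. Since SIN3A was mapped in siRNA-treated cells and PDX1 in cells with no siRNA label, each against its own input, the transfection and the protein cannot be told apart where the lists differ.

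SIN3A is the scaffold of a corepressor complex that carries the histone deacetylases HDAC1 and HDAC2. It has no sequence-specific DNA-binding domain of its own and is brought to DNA by transcription factors that have one. PDX1 is a homeodomain transcription factor that binds sites built on a TAAT core, and in β-cells it activates insulin and other genes of the mature cell at promoters and at distant enhancers.

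Promoters of genes with a shared site are shown first because the PDX1 core letters can be looked for in them. The RefSeq promoters of GRCm38.p6 (mm10), 250 bases before to 50 bases after each listed start, were searched for TAAT on both strands, that is for TAAT or ATTA. The stretches below come from the part before the start and were cut where the gene's own annotated body begins. They run 5′ to 3′ on the gene's strand, with TAAT or ATTA in capitals. They are examples and not every gene named below with both peaks at a promoter. Of those not printed, Kntc1 and Efcab11 hold no core in the 250 bases before the start. Tmem138 and 1700088E04Rik hold 1 each. Hnf4a lies at chr2:163506607-163506810 (+ strand), Exoc1 at chr5:76529057-76529306 (+ strand), Wdr31 at chr4:62471000-62471149 (- strand) and Prkd1 at chr12:50649272-50649499 (- strand). Uba1 at chrX:20662793-20662822 (+ strand) is only the 30 bases around its palindromic core, since this start lies inside the gene body. Another TAAT of Uba1, 180 bases before the start and outside the PDX1 peak, is not printed.
Hnf4a: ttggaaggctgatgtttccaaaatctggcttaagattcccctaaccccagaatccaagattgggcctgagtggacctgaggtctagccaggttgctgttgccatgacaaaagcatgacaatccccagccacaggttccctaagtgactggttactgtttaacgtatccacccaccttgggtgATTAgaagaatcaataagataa
Exoc1: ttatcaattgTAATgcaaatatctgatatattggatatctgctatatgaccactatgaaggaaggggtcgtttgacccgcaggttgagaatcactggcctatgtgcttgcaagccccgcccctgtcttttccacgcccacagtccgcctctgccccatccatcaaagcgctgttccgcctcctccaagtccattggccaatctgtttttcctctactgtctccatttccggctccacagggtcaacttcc
Wdr31: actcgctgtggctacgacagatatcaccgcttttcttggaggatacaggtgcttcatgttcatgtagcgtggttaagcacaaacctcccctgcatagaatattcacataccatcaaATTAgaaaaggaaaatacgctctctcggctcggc
Prkd1: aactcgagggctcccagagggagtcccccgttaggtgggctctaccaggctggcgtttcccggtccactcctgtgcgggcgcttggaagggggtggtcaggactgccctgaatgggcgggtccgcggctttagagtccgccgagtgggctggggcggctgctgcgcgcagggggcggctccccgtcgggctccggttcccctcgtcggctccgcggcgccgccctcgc
Uba1: ctgttctccttcTAATTAaagaagtcccaa

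At Hnf4a, a nuclear receptor of liver and β-cells, the single core lies 68 bases before the start, inside both peaks, and the SIN3A centre lay 8 bp from the PDX1 centre. In Exoc1, which encodes a subunit of the vesicle-tethering exocyst, the core lies 240 bases before the start, 87 bp outside the PDX1 peak. In Wdr31 it lies 134 bases before the start, inside the PDX1 peak. The Uba1 stretch, from the gene of the ubiquitin-activating enzyme, holds the palindrome TAATTA, which reads as a core on both strands and lies inside the PDX1 peak. The Prkd1 stretch, from the gene of protein kinase D1, holds no core in these letters, is 73.2% G and C, and has SIN3A and PDX1 centres 11 bp apart.

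Over all 32851 listed promoters, 0.371% were overlapped by a shared SIN3A peak and its PDX1 peak. These 122 windows belong to 109 genes. TAAT was held by 71.3% of them (interval 62.7 to 78.6%), by 32.2% of the 5716 promoters with SIN3A only, by 83.7% of the 479 with PDX1 only and by 58.0% of all. The palindrome TAATTA followed the same order, at 9.84% of shared promoters, 1.31% with SIN3A only, 19.8% with PDX1 only and 5.29% of all. The letters GGGCGG, the box of SP and KLF factors, were held by 49.2% of shared promoters against 72.8% with SIN3A only and 34.0% with PDX1 only. The 89 promoters with separate, non-overlapping peaks of both proteins held TAAT in 73.0% and GGGCGG in 61.8%. Shared promoters lay between the SIN3A-only and PDX1-only classes in both, and so did the promoters with separate peaks. For CCGGAA, the ETS core, and TGACG, the core of cyclic AMP response elements, shared promoters were near the SIN3A-only class, at 36.9% and 36.1% against 35.6% and 36.5%, with 14.9% and 20.8% over all promoters. Base composition moved with these letters. The median G and C content was 54.3% in shared promoters, 64% with SIN3A only and 50% with PDX1 only, and its part in the motif shares was not tested.

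Of all SIN3A peaks, 6.83% overlapped a PDX1 peak (interval 6.42 to 7.28%), which is 2.24% of all PDX1 peaks. The share depended on where the SIN3A peak lay. Within 1 kb of a gene end 180 of 8944 SIN3A peaks, 2.01% (1.74 to 2.32%), were shared. Farther than 1 kb from any gene end 716 of 4165, 17.2% (16.1 to 18.4%), were shared. Thus 79.9% of the shared sites lay away from gene ends, compared with 28.2% of the SIN3A peaks without PDX1 and 96.6% of the PDX1 peaks without SIN3A. Seen from PDX1 the order was the reverse: 11.8% of its 1528 peaks near gene ends carried SIN3A, and 1.86% of its 38500 peaks elsewhere. Most SIN3A peaks sit at gene ends and most PDX1 peaks do not, and the shared part of each list was largest in the place where its own peaks were few.

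The gene boundaries miss starts inside gene bodies and starts of noncoding genes. Of the 4165 SIN3A peaks away from gene ends, 1444 lay within 1 kb of a RefSeq start, and 4.71% of these were shared. The other 2721 had no listed start within 1 kb, and 23.8% of them (22.3 to 25.5%) were shared. The start table covers 17492 of the 21887 protein-coding genes, so some peaks counted as away from starts may lie at a start it leaves out. Shared sites away from gene ends lay a median of 22.7 kb from the nearest one, farther than the 7.75 kb of SIN3A peaks without PDX1 and nearer than the 55.5 kb of PDX1 peaks without SIN3A. Of the 896 shared SIN3A peaks 62.4% were inside a gene body, against 83.0% of the other SIN3A peaks. The gene table used gives bodies without exons, so exons, introns and UTRs were not assigned.

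The density of PDX1 peaks around SIN3A peaks was then followed with distance, counting PDX1 centres per kb for every 1000 SIN3A peaks. Around SIN3A peaks away from gene ends it was 468 within 50 bp, 227 at 200 to 300 bp, 52.8 at 500 to 1000 bp and 20.1 at 50 to 100 kb. The innermost density was 23.3 times that of the farthest ring. Around SIN3A peaks at gene ends it was 29.1 within 50 bp, 61.5 at 150 to 200 bp, 56.5 at 200 to 300 bp and 17.3 at 50 to 100 kb. There PDX1 centres were sparser on top of the SIN3A centre than beside it, with an inner density 0.515 times that at 200 to 300 bp. The innermost count at gene ends is 26 PDX1 peaks, so its counting error is large. Within pairs the centres lay a median of 94 bp apart away from gene ends and 137.5 bp apart at gene ends, 215 bp being the largest offset at which the peaks still overlap. Centres within 50 bp of each other made up 27.5% of pairs away from gene ends and 15% of those at gene ends.

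**Figure D1:**
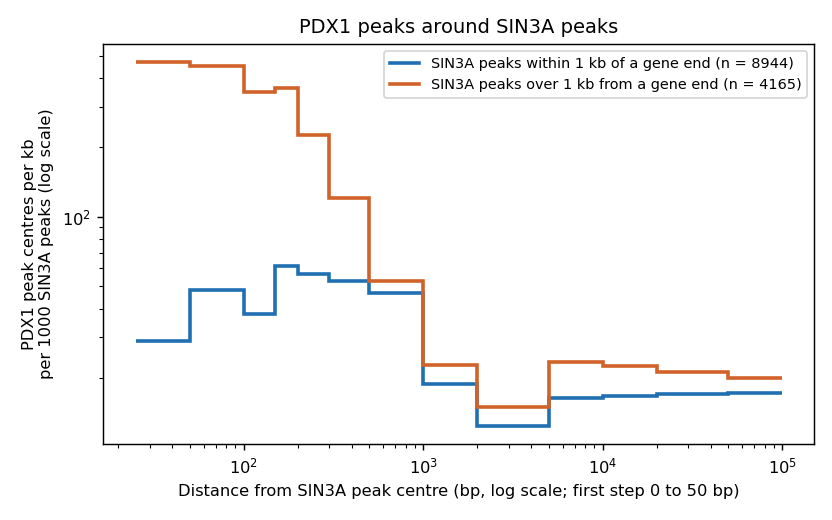
Density of PDX1 peak centres by distance from SIN3A peak centres, in PDX1 centres per kb per 1000 SIN3A peaks, both axes logarithmic, for SIN3A peaks within 1 kb of a gene end (blue) and farther away (orange). The orange line falls from 468 in the innermost step to 20.1 at 50 to 100 kb, while the blue line is lower in the innermost step (29.1) than at 150 to 200 bp (61.5).

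Peak strength was read from the authors' tag counts, sequenced fragments per peak scaled to 10 M, by cutting each list into 4 strength classes of equal size, class 1 holding the highest tag counts and class 4 the lowest. Away from gene ends the shared part of SIN3A peaks was 2.95% in class 1, 6.13% in class 2, 12.9% in class 3 and 26.5% (24.6 to 28.5%) in class 4. At gene ends it went from 1.19% in class 1 to 3.61% in class 4. In both places the shared part was larger in each weaker class. PDX1 peaks away from gene ends showed the opposite order, with 5.02% shared in class 1 and 1.53%, 0.646% and 0.227% in the classes below it. PDX1 peaks at gene ends showed no such order, with 11.8%, 11.4%, 13.8% and 9.78% and intervals that overlap. Among the strongest 5% of the SIN3A list, none of the 86 peaks away from gene ends (interval up to 4.28%) and 4 of the 569 at gene ends were shared. Among the strongest 5% of the PDX1 list 7.97% of the peaks away from gene ends and 6 of the 44 at gene ends were.

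**Figure D2:**
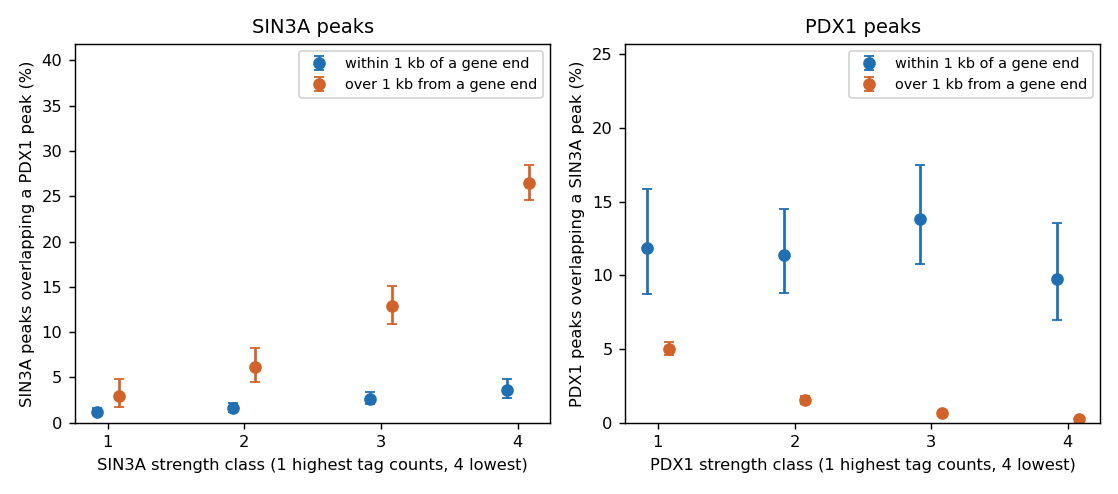
Percent of SIN3A peaks overlapping a PDX1 peak (left) and of PDX1 peaks overlapping a SIN3A peak (right), by strength class of each list (1 the highest tag counts, 4 the lowest), with 95% Wilson intervals as bars. Away from gene ends (orange) the SIN3A share goes from 2.95% in class 1 to 26.5% in class 4, and the PDX1 share from 5.02% to 0.227%.

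By tag count, the pairs away from gene ends thus held mostly weak SIN3A peaks and mostly strong PDX1 peaks. SIN3A tags there had a median of 9.02 per 10 M, against 13.8 in SIN3A peaks without PDX1, while PDX1 tags had a median of 20.1, against 7.98 in PDX1 peaks without SIN3A. The SIN3A peak was in class 4 of its list and the PDX1 peak in class 1 in 359 of the 716 pairs, 50.1%, and in 8 of the 180 pairs at gene ends, 4.44%. Taken singly, 74.2% of the 716 pairs had their SIN3A peak in class 4 and 67.9% their PDX1 peak in class 1. Whether these went together more often than the single shares give was not tested. At gene ends the median was 17.4 SIN3A tags against 22.9 without PDX1, and 8.31 PDX1 tags against 8.47 without SIN3A. There the PDX1 peaks were about as strong with SIN3A as without. The lowest SIN3A tag count in the pairs away from gene ends, 4.51, lay near the calling threshold of 15 tags, which is 4.83 per 10 M. Input tags, counted at the same places in DNA without immunoprecipitation, had a median of 6 at shared PDX1 peaks away from gene ends and 2 at the others. In class 1 of the PDX1 list alone these were 7 and 6. The fold over input did not follow the tags, with a median of 8.875 at shared PDX1 peaks away from gene ends and 9.48 at the others. It was lower at shared peaks in class 1 (10.48 against 12.35), class 2 (6.22 against 8.22) and class 3 (5.925 against 7.78). In class 4 it was higher (11.11 against 9.77). The part of the input signal in the sharing was not tested.

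**Figure D3:**
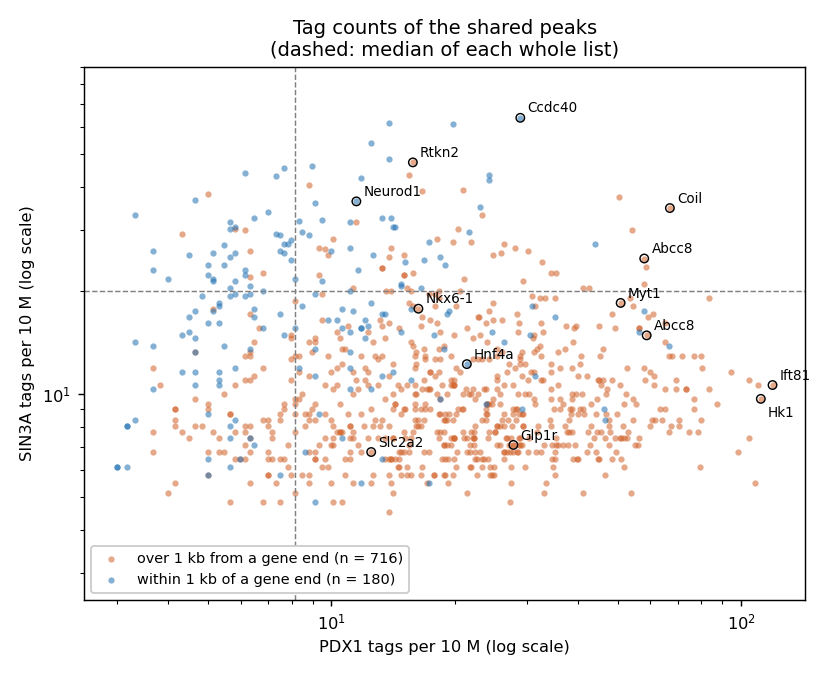
SIN3A against PDX1 tags per 10 M (logarithmic axes) for the 896 shared sites, at gene ends (blue, n = 180) and away from them (orange, n = 716), with dashed lines at the medians of the whole lists and named sites circled. Orange points crowd the lower right, weak SIN3A with strong PDX1, and blue points extend to the upper left.

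The shared sites at gene ends with the highest SIN3A tags were at Ccdc40, Exoc1 and Tmem138. Ccdc40, a gene of motile cilia, had 63.8 SIN3A and 28.9 PDX1 tags per 10 M (SIN3A peak chr11:119228979-119229203), with centres 77 bp apart. Exoc1 had 61.8 and 13.8 (chr5:76529334-76529558). Tmem138, a ciliary gene whose start lies beside that of Cyb561a3, had 61.2 and 19.8 (chr19:10576966-10577190), so this peak may belong to either gene. All 3 SIN3A peaks were in class 1 of their list, and the PDX1 peaks were in class 1 at Ccdc40 and Tmem138 and in class 2 at Exoc1. Next came Kntc1 (53.8 and 12.5), 1700088E04Rik (48.3 and 13.8), Wdr31 (46.1 and 8.97), Zfp36l2 (45.4 and 7.64), Abcf3 (44.1 and 6.15), Rccd1 (43.5 and 24.3) and Prkd1 (43.2 and 7.31), SIN3A tags first. All 10 SIN3A peaks were in class 1 and were found again in the list after Pdx1 siRNA. Of all class 1 SIN3A peaks at gene ends, 97.0% of the shared and 92.9% of the others were found again.

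Away from gene ends the highest SIN3A tags at a shared site were 47.3, in the body of Rtkn2, with 15.8 PDX1 tags (chr10:67985014-67985238). The others by rank were nearest to Asic1, an acid-sensing ion channel gene (43.5 and 15.5), Efcab11 (40.6 and 8.81), Dcaf11 (39.3 and 20.9), Pcdh10, a protocadherin gene (39 and 16.6), Lekr1 (38.3 and 4.99), Coil, which encodes coilin of Cajal bodies (34.8 and 67), Srbd1 (33.2 and 23.3), the netrin receptor gene Unc5a (31.6 and 11.5) and the repressor gene Cic (30.3 and 20.4). At Coil both proteins were strong, and 9 pairs away from gene ends had both peaks in class 1. The SIN3A peaks of Efcab11, Lekr1 and Dcaf11 lay within 1 kb of a listed start of that gene, although over 1 kb from its ends. All 10 were in class 1 of the SIN3A list and were found again after Pdx1 siRNA. Of all class 1 SIN3A peaks away from gene ends, 100% of the shared and 90.3% of the others were found again.

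The pairs with the most PDX1 tags follow, picked by PDX1 tags where the sites above were picked by SIN3A tags. The highest, in the body of Ift81, a gene of ciliary transport, had 119.3 PDX1 tags and 10.6 SIN3A tags (PDX1 peak chr5:122558662-122558868). The next was in Hk1, hexokinase 1, with 111.7 and 9.66 (chr10:62344113-62344319), and Wsb1 (109.7 and 10.6), Uvrag (107.8 and 5.48) and Sgcz (104.5 and 11) followed. Then came a site with no gene within 50 kb (104.5 and 7.41), Cdk5rap3 (98.5 and 6.76), Mvk, mevalonate kinase (94.2 and 11.6), Bmp1 (87.2 and 9.34) and another site with no gene within 50 kb (83.7 and 10.3). All 10 SIN3A peaks were in class 4 of the SIN3A list, beside 359 of the 486 pairs away from gene ends whose PDX1 peak was in class 1. All 10 PDX1 peaks were also in the lists of PDX1 in Bmal1 knockout cells and of PDX1 with IL-1β. Of all shared class 1 PDX1 peaks away from gene ends 60.1% and 91.2% were. After Pdx1 siRNA 4 of the 10 SIN3A peaks, those of Ift81, Wsb1, Sgcz and Bmp1, were found again. Of all shared class 4 SIN3A peaks away from gene ends 34.1% were.

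Each peak was assigned to the nearest protein-coding gene body within 50 kb. Of the 21887 genes 46.4% had a SIN3A peak, 41.6% a PDX1 peak, and 741 genes, 3.39%, had a shared site. Among the 5662 genes with a peak of both proteins, 13.1% had a shared site, and in the other 4921 the nearest SIN3A and PDX1 centres lay a median of 9.37 kb apart. So most genes that carry both proteins carry them at separate places. In 173 genes all shared sites were at gene ends, in 561 all were away from them, and 7 had both kinds. A single shared site was found in 688 genes and 3 or more in 9. Gse1, which encodes a protein of a histone-modifying corepressor complex, had 7 among its 17 SIN3A and 21 PDX1 peaks, and Maml3, a Notch coactivator gene, had 5. Arid1b, Auts2, Casz1, Dpp9, Lyplal1, Plekha6 and Rimbp2 had 3 each. These 9 genes also carried many peaks, between 3 and 41 of PDX1. Among all shared sites 87 had no gene within 50 kb.

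In the list of β-cell transcription factors 7 of 26 genes had a shared site, 26.9%, beside 3.39% of all genes. Of its 18 genes with both proteins 38.9% had one, beside 13.1% of all such genes. Outside this list and that of insulin and secretion, this share ranged widely. It went from 0% of 6 cell cycle genes to 33.3% of 9 mitochondrial genes and 33.3% of 3 genes of other islet endocrine cells. The list of β-cell transcription factors also had PDX1 at 24 of its genes, 92.3%, beside 41.6% of all. The 7 were Hnf4a, Neurod1, Nkx6-1, Myt1, Glis3, St18 and Bach2. Neurod1, a basic helix-loop-helix activator of insulin, had its site at the gene end (chr2:79456483-79456707, 36.4 SIN3A and 11.5 PDX1 tags), in class 1 of the SIN3A list. Hnf4a had 12.2 and 21.4 tags at its upstream end (chr2:163506643-163506867). Both were found again after Pdx1 siRNA. Of shared SIN3A peaks at gene ends 97.0% were in class 1, that of Neurod1, and 71.2% in class 3, that of Hnf4a.

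The other 5 of these genes had their sites away from gene ends. Nkx6-1, a homeodomain factor of β-cells, had a site 2940 bp outside the gene (chr5:101656132-101656356, 17.7 SIN3A and 16.3 PDX1 tags). Its strongest PDX1 peak, with 90.1 tags, was not the shared one. Myt1, a zinc finger factor of endocrine cells, had 18.4 and 50.8 tags at a site inside the gene (chr2:181767091-181767315) that lay 174 bp from a listed start. Glis3, a zinc finger factor needed for β-cell development, had a pair of sites among its 16 PDX1 peaks, with 11.9 and 28.1 tags and with 6.76 and 17.3. St18 (6.76 and 22.4) and Bach2 (9.66 and 22.4) had weak SIN3A peaks. Of these 5 genes only Myt1 kept its SIN3A peak after Pdx1 siRNA. The SIN3A peaks of Glis3, St18 and Bach2 were in class 4, where 34.1% of shared peaks away from gene ends were found again. Those of Nkx6-1 and Myt1 were in class 3, where 66.4% were. Mafa, Isl1, Nkx2-2, Pax6, Foxa2 and Rfx6 had both proteins at separate places, from 5596 bp apart in Foxa2 to 15604 bp in Pax6. Pdx1 itself had 4 PDX1 peaks and no SIN3A peak.

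Among 32 genes of insulin production and secretion 6 had a shared site, 18.8%, 35.3% of its 17 genes with both proteins. Slc2a2, the glucose transporter GLUT2, had a site 1702 bp from its body (chr3:28696089-28696313, 6.76 SIN3A and 12.5 PDX1 tags). Abcc8 encodes SUR1, the sulfonylurea-binding subunit of a potassium channel that closes when ATP is high. Abcc8 had a pair of strong PDX1 sites inside the gene, with 24.8 SIN3A and 58 PDX1 tags 9 bp apart (chr7:46128300-46128524) and with 14.8 and 58.8 tags 52 bp apart (chr7:46145896-46146120). The calcium channel genes Cacna1c (7.09 and 19.6) and Cacna1d (7.73 and 11.3) and the incretin receptor gene Glp1r (7.09 and 27.8) had weak SIN3A peaks in their bodies. Of these sites only the first in Abcc8 was found again after Pdx1 siRNA. Its SIN3A peak was in class 2, where 79.5% of shared SIN3A peaks away from gene ends were found again. The other of Abcc8 was in class 3, where 66.4% were, and the rest were in class 4, where 34.1% were.

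All 7 β-cell markers had a PDX1 peak, and 3 of the 7, Nkx6-1, Mafa and Slc2a2, also had a SIN3A peak, which in Nkx6-1 and Slc2a2 was shared. Ins1 had 7 PDX1 peaks with up to 49.9 tags per 10 M, Ins2 had 1 with 89.9 and Slc30a8, the zinc transporter of insulin granules, had 5 with up to 123.3, and none of the 3 genes had a SIN3A peak. Markers of other cells also had PDX1 peaks, at 3 of 3 α-cell, 2 of 2 δ-cell, 1 of 3 acinar, 2 of 2 duct, 2 of 2 endothelial and 1 of 1 blood cell genes, beside 41.6% of all genes. The acinar genes Cpa1 and Ptf1a had neither protein. Peak positions alone do not mark the cell type.

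Other lists had smaller shares of genes with a shared site than β-cell transcription factors and insulin and secretion. Those of this paragraph were still above the 3.39% of all genes, on 1 or 2 genes each. Among genes of other islet endocrine cells 1 of 14, 7.14%, had a shared site (Etv1, 11.9 SIN3A and 57.8 PDX1 tags). PDX1 only was found at 9 of the 14, beside 15.7% of all genes. Hk1 was the only 1 of 14 genes, 7.14%, that β-cells keep low or gain on dedifferentiation. Of 23 core clock genes 1 had a shared site, 4.35%. This was Rora, a nuclear receptor that activates Bmal1, with a pair of sites (14.8 and 7.98, and 8.7 and 8.81). The clock list had SIN3A at 82.6% of its genes, beside 46.4% of all. It had both proteins at 11, so that 1 of 11 shared a site, near the 13.1% of all such genes. Of 26 genes of the SIN3 and HDAC complex and its recruiting factors 24 had a SIN3A peak, 92.3%, beside 46.4% of all genes. A shared site was found at 2 of the 26, 7.69%. These were Arid4b, a complex subunit (7.73 and 45.4), and the MAX-binding repressor Mxi1 (6.12 and 14.6).

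Housekeeping lists carried SIN3A at nearly every gene. SIN3A peaks were at 96.7% of 30 cytosolic ribosomal protein genes, 93.3% of 30 mitochondrial genes and 22 of 22 proteasome and ubiquitin genes, beside 46.4% of all genes. PDX1 peaks were at 26.7%, 30% and 50% of these lists, beside 41.6% of all. Shared sites were at 1, 3 and 1 of them, which is 3.33%, 10% and 4.55%, beside 3.39% of all genes. For the ribosomal and proteasome lists 1 gene more or less moves the share past that of all genes. The 10% of the mitochondrial list rests on 3 genes. The genes with a shared site were Rpl32 (20.9 and 14.8), Atp5g1, Mrpl44 and Ndufs1 of the mitochondrion, and Uba1 (15.8 and 11). None of 28 cell cycle genes and none of 22 genes of the secretory pathway and its stress response had a shared site, and 14 of the latter had both proteins, at a median of 3.65 kb apart. Btg2 was the 1 of 18 immediate early genes, 5.56%, and Scn3b, a sodium channel subunit, the 1 of 20 neuronal genes, 5%. None of 22 genes of other lineages had one, and 3 of these, 13.6%, had a SIN3A peak, beside 46.4% of all genes.

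After Pdx1 siRNA SIN3A had 14653 peaks, and 7.79% of them overlapped a PDX1 peak of the wild-type control cells, 1.83% at gene ends and 19.1% (18.1 to 20.2%) away from them. After control siRNA these were 6.83%, 2.01% and 17.2%. Over all peaks the intervals, 7.37 to 8.24% after Pdx1 siRNA and 6.42 to 7.28% after control siRNA, do not overlap. Within each place they do. In number, 1142 SIN3A peaks overlapped a PDX1 peak after Pdx1 siRNA, 966 of them away from gene ends, and 896 and 716 after control siRNA. The part of the longer list in this was not tested. The files hold no PDX1 list after Pdx1 siRNA, so how far PDX1 fell at these sites was not measured here. Of the 896 shared SIN3A peaks 451, 50.3%, were found again in the list after Pdx1 siRNA. Away from gene ends 43.9% (40.3 to 47.5%) were, against 61.2% of the SIN3A peaks without PDX1. The shared peaks were also weaker, and by SIN3A strength class, from class 1 to class 4, the shares were 100%, 79.5%, 66.4% and 34.1% with PDX1 and 90.3%, 80.4%, 66.0% and 40.8% without. Away from gene ends only classes 1 and 4 differed by more than 1 percentage point, and in opposite directions. Class 1 held 15 shared peaks, and its interval of 79.6 to 100% overlaps the 87.3 to 92.6% of the others. In class 4 the interval was 30.2 to 38.2% for the 531 shared peaks and 38.3 to 43.4% for the 1472 others. These shared peaks also had fewer SIN3A tags than the others, a median of 8.05 against 8.37. At gene ends 76.1% of shared and 80.7% of other SIN3A peaks were found again, and by class the shares were 97.0%, 83.3%, 71.2% and 60.9% with PDX1 against 92.9%, 85.8%, 74.5% and 53.6% without. There class 4 had the higher share with PDX1, the opposite of class 4 away from gene ends, and the intervals overlap in each class.

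**Figure D4:**
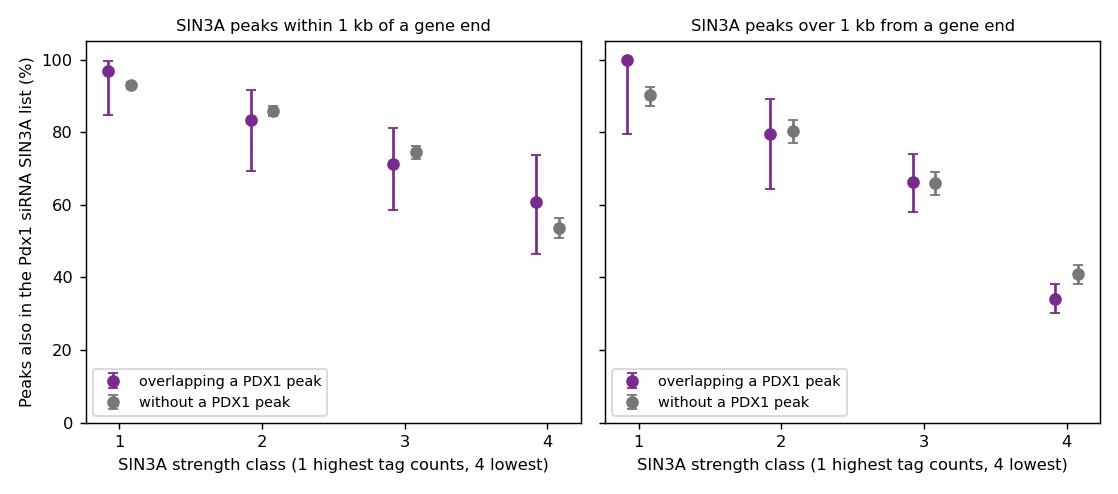
Percent of SIN3A peaks of control siRNA cells found again in the SIN3A list after Pdx1 siRNA, by SIN3A strength class (1 the highest tag counts, 4 the lowest), for peaks with PDX1 (purple) and without (grey), at gene ends (left) and away from them (right), with 95% Wilson intervals as bars. Both colours fall together from class 1 to class 4, and in class 4 away from gene ends the purple point (34.1%) is below the grey (40.8%), while at gene ends it is above (60.9% and 53.6%).

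The PDX1 peaks of the shared sites were looked for in the other lists. Away from gene ends 76.3% (73.0 to 79.2%) of them were also PDX1 peaks with IL-1β and 42.2% were PDX1 peaks in Bmal1 knockout cells, against 60.5% and 18.9% of the PDX1 peaks without SIN3A. The IL-1β list holds 38930 peaks of 227 bp with a threshold of 3.56 tags per 10 M. The knockout list holds 8339 peaks of 473 bp with a threshold of 5.54, so shares are not comparable between these lists. Because shared PDX1 peaks are strong, class 1 of the PDX1 list was compared on its own. Even within it shared peaks had more tags, a median of 27.4 against 22.8, so strength was not fully matched. In class 1 the shares were 91.2% against 94.6% with IL-1β and 60.1% (55.7 to 64.3%) against 54.8% in knockout cells. In classes 2, 3 and 4 the shares with IL-1β were 56.2%, 25.8% and 22.7% at shared peaks against 73.1%, 50.2% and 25.9% at the others. Within each class the share with IL-1β was thus lower with SIN3A, although it was higher over all classes together, and in class 4 the intervals overlap. In knockout cells class 2 held 6.16% (3.28 to 11.3%) against 16.0% (15.3 to 16.8%), the reverse of class 1. The inflammatory factor p65 after IL-1β was found at 44.6% of shared PDX1 peaks away from gene ends and at 19.3% of the others. In class 1 these were 54.5% (50.1 to 58.9%) and 44.1% (43.1 to 45.1%). Without the cytokine p65 was found at 16.0% and 14.4% of class 1. Within a condition p65 and PDX1 were called against a common input.

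At gene ends 28.3% (22.3 to 35.3%) of the PDX1 peaks with SIN3A and 44.5% (41.9 to 47.2%) of those without were found again with IL-1β. The median tags of these groups were alike, 8.31 and 8.47, and from class 1 to class 4 the shares were 73.7%, 30.9%, 7.14% and 6.45% with SIN3A against 82.7%, 49.9%, 27.4% and 19.6% without. The share was lower with SIN3A in each class here too, though the intervals overlap in classes 1 and 4, which hold 38 and 31 shared peaks.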

How the data were processed

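ChIP-seq peak lists of 10 groups were analysed, 1 list per group. The submitters' processing notes name Bowtie2, HOMER and mm10. Settings of the aligner: not given in the sources used here. Per the file headers, the authors called peaks with HOMER findPeaks in its factor style against input, keeping peaks at 4-fold or more over input (p = 1.00e-04) and over the surrounding 10 kb, with a false discovery rate of 0.001. Pooling of replicates is not mentioned there. Signal means the tag count that the authors normalised to 10 M tags. The peak score, the focus ratio (a fraction) and the fold over input are the authors' deposited values. They were used for description and for ranking inside a list. The SIN3A list rests on 31.0 M tags and the PDX1 list on 60.2 M.

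Overlaps, distances from peak centres, distance rings and Wilson 95% intervals were computed with Python 3.11.15, numpy 2.4.6, pandas 2.3.3 and scipy 1.17.1, and tested on simulated peaks. No gene strand is in the gene table, so genes were assigned by nearest body. All 326 listed genes matched, Fam60a as Sinhcaf. The members, gene lists and motifs were chosen with earlier results of these data known. Named sites are the 10 shared sites with the most SIN3A tags at gene ends, the 10 away from them with a gene within 50 kb, the 10 with the most PDX1 tags, the 5 highest unshared peaks of each list, and members of the gene lists with a shared site. Genes with 3 or more shared sites, and listed genes without a shared site, were named after their values were seen. Some genes are not reported here. Mitochondrial and unplaced peaks count as away from gene ends. Alternatives changed the overlap rule, peak strength, list length and distances.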

Additional observations from a re-analysis of the deposited data

How the results depend on the processing

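In 9 of 9 settings the share of SIN3A peaks with PDX1 was larger away from gene ends than at them. The sizes moved in 35 of 41 values. With a reciprocal overlap of 50%, SIN3A peaks shared 3.52% in all, 0.783% at gene ends and 9.41% away, PDX1 peaks 1.15%, and 380 genes had a shared site. With centres within 100 bp these were 3.49%, 0.783%, 9.29%, 1.14% and 376 genes. With peaks of at least 8-fold over input they were 2.76%, 0.578%, 8.20%, 1.06% and 217 genes, with 71.4% of SIN3A peaks at gene ends against 68.2%. With the PDX1 list cut to its highest-scored peaks, as many as SIN3A, they were 4.57%, 0.626%, 13.0%, 4.57% and 485 genes. With the peaks above the median tag count of each list they were 1.30%, 0.702%, 4.11%, 0.425% and 81 genes, and 82.6% of SIN3A peaks were at gene ends. A gene-end distance of 500 bp gave 13.7% away and 58.3% at gene ends, and 2 kb gave 20.4% and 74.4%. Chosen after seeing the data, leaving out SIN3A peaks within 1 kb of a listed start gave 15.5% in all, 2.52% at gene ends and 23.8% away, and measuring from the peak edge put 69.2% at gene ends. A tighter overlap rule gives lower shares by construction, and for the other settings the cause was not tested.

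No paired analysis was possible because the lists hold 1 value per group and none per replicate, and leaving out a replicate was not run for the same reason. The SIN3A lists rest on fewer tags than the PDX1 list, and a site without a SIN3A peak is 1 where none passed the threshold, which does not show that binding was absent.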

Other observations

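The strongest peaks that were not shared are of different kinds. The highest SIN3A peaks without PDX1 were at chr1:195241609-195241833 (278.3 tags per 10 M) and at chr19:61266955-61267179, nearest to Csf2ra (247), and they held 107 and 72 input tags. The next, at Tcp11l2 (163.9), Trmt61a (163.6) and Borcs8 (147.2), lay within 72 bp of a gene end and held 4, 4 and 3 input tags. The highest PDX1 peaks without SIN3A were a pair on the mitochondrial genome (3514.3 and 1605.5 tags, with 1647 and 749 input tags) and 1 on an unplaced contig (248.9). They were followed by a peak nearest to Zfp395 (208) and 1 with no gene within 50 kb (199.1), which held 13 and 6 input tags.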
